A study of Mus musculus with 18 samples.

Results

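The regions described here had a peak of methylated DNA in hearts of sham-operated mice and in hearts collected 72 h after a myocardial infarction (MI, in which muscle dies because a coronary artery is closed), but mostly lacked one in the libraries of the first hours after the infarct. They were chosen from the peaks themselves: all peak lists were merged where peaks overlapped by at least 1 base, and an autosomal merged region was kept when at least 5 of the 6 sham and MI 72 h libraries and at most 3 of the 9 MI 10 min, MI 1 h and MI 6 h libraries had a peak in it. The rule kept 1744 of 148111 autosomal regions (1.18% of those tested), and the whole series held 152196 regions. They are called the selected regions below, since most of them did have a peak in some early libraries: 59 had none and 928 had 3 of 9. The MI 24 h libraries took no part in the choice.

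The mice were 12-week-old male C57BL/6JR animals, 3 in each of 6 groups, and each gave 1 library. In 5 groups the left anterior descending coronary artery was tied under sodium pentobarbital, and the hearts were taken after 10 min, after 1 or 6 h, or after 24 or 72 h. Sham mice, labelled control, had the same operation with a suture that was left untied, and all were killed under isoflurane. The labels call the tissue myocardial and the cells cardiomyocytes without describing a cell isolation, and peaks of methylated DNA carry no expression values with which to check that name. In tissue of this kind, a change of methylation within a cell type and a change in the mix of cell types cannot be told apart.

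Methylation of cytosine is found in mammals mainly at CpG sites, where a cytosine precedes a guanine, and it is copied to the new strand by the DNMT1 methyltransferase when DNA is replicated. TET enzymes oxidise the mark and so start its removal. Heart muscle cells of adult mice seldom divide, while an infarct is entered by neutrophils and monocytes within hours to days and later by dividing fibroblasts. MeDIP-seq, the method used, pulls down sheared DNA with an antibody against methylated cytosine. It reports where methylated fragments pile up and not what share of DNA molecules carries the mark, and it responds to the local density of methylated CpG.

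Few selected regions lay at the start of a gene, and the sequences there show how many CpG sites such a start offers to the antibody. Of the 1744 regions, 30 (1.72%) touched a promoter window, which runs from 250 bases before to 50 bases after a gene's start in the RefSeq table of build GRCm38.p6. The share over all autosomal regions was also 1.72%. Over regions with a peak in 8 to 10 of the 18 libraries it was 2.20%. The 3 windows below belong to genes with known roles in muscle or chromatin: Jph2, whose protein junctophilin 2 holds the sarcoplasmic reticulum against the cell membrane of heart muscle, H1f7, a linker histone of the testis, and Mstn, whose protein myostatin restrains muscle growth. H1f7 and Mstn were picked after their values had been seen. Each is printed 5′ to 3′ on the strand of its gene, with every CpG in capitals.
Jph2, chr2:163397924-163398223, minus strand: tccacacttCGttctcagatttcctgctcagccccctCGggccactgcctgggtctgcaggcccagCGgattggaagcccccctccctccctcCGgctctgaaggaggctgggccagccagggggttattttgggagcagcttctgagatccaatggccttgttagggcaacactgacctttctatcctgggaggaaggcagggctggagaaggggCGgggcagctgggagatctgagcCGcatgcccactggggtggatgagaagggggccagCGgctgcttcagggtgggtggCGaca
H1f7, chr15:98257258-98257557, minus strand: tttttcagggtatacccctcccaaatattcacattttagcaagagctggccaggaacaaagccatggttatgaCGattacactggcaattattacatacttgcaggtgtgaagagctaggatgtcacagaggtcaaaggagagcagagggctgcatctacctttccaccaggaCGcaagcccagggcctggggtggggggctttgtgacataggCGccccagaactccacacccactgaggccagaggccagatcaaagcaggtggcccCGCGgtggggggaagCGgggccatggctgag
Mstn, chr1:53061390-53061689, plus strand: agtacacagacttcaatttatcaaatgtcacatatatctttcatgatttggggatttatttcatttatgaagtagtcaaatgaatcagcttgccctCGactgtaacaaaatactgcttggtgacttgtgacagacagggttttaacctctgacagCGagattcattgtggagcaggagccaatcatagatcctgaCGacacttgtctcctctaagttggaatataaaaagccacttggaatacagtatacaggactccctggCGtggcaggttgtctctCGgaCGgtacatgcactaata

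The Jph2 window holds 8 CpG, and the windows of H1f7 and Mstn hold 6 each. At least 8 CpG were found in 49.0% of all autosomal promoter windows and at least 6 in 56.8%, so the 3 windows are neither rich nor poor in the site. The search was for the letters CG, which read the same on both strands. Over the 33 windows that selected regions touched, the median was 7 CpG (range 1 to 20), against 6 for the 2826 windows touched by any region and 8 for the 28570 touched by none. At least 15 CpG were present in 3 of the 33 windows (9.09%), in 8.03% of windows on any region and in 37.9% of windows on none. CpG-rich starts of genes are known as islands that are mostly free of methylation, and few windows on selected regions or on any region were of that kind. The bases of the windows of H1f7 and Mstn lay wholly inside their regions. The Jph2 region touched its window by 1 base only and ran on from there into the gene.

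The 18 peak lists held between 34255 and 60653 peaks. Sham libraries had 51287 ± 8068 peaks and MI 72 h libraries 56084 ± 6528 (mean ± SD, n = 3 each). The early groups had 44457 ± 7597 at 10 min, 44440.0 ± 1033 at 1 h and 42620 ± 8149 at 6 h, and the MI 24 h group had 48529 ± 2194. The 2 groups in which the rule asks for a peak therefore had the longest lists on average, and the 3 in which it asks for none had the shortest. Sequencing depth is unknown, because the lists give no read counts.

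How the selected regions were occupied by library is set by the rule and is given as a description. A peak was present in 84.2%, 91.3% and 76.9% of them in sham replicates 1, 2 and 3, and in 92.0%, 91.6% and 81.4% at 72 h. At 10 min the shares were 36.1%, 14.9% and 26.4%, at 1 h 27.2%, 28.2% and 27.0%, and at 6 h 23.9%, 33.2% and 16.1%. Within sham, 10 min and 6 h the order of these shares was the order of the list lengths, and at 72 h the shortest list had the lowest share; the 1 h lists were of nearly one length. The lowest values, at 10 min replicate 2 and 6 h replicate 3, came from the 2 shortest lists. Most selected regions stood near the edge of the rule: 1440 had a peak in 5 of 6 sham and MI 72 h libraries and 304 in 6 of 6, and 928 had a peak in 3 of 9 early libraries, 520 in 2, 237 in 1 and 59 in none. The full pattern, 6 of 6 and 0 of 9, was met by 7 regions. Just outside the rule lay 3910 regions with 4 of 6 and at most 3 of 9 and 1401 regions with at least 5 of 6 and 4 of 9.

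**Figure D1:**
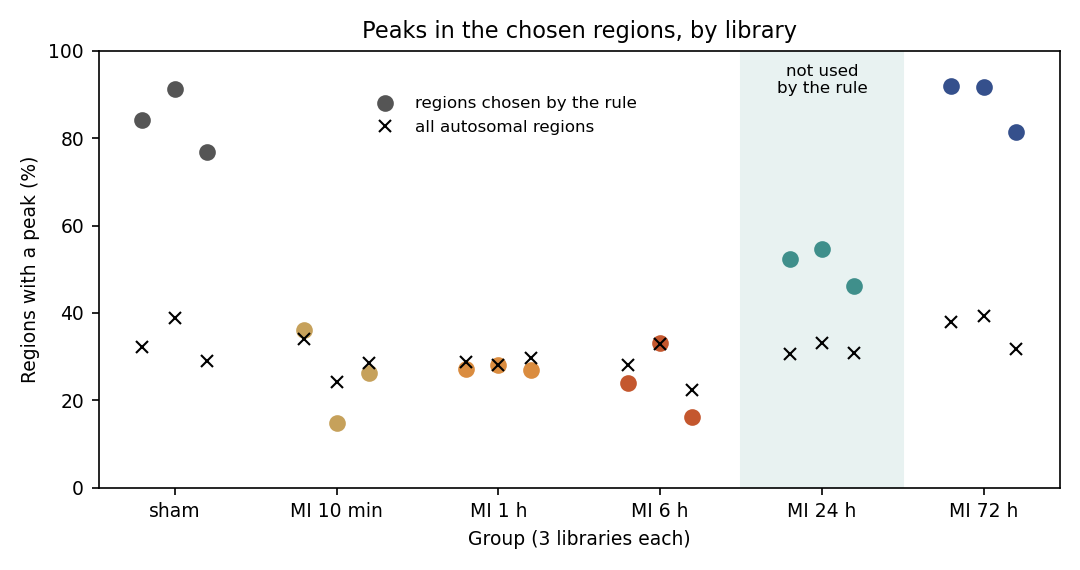
Each point is a library: the share of the 1744 selected regions (coloured circles) and of all autosomal regions (crosses) in which it had a peak, in percent, by group. The high sham and MI 72 h circles and the low early circles are what the rule asked for; the MI 24 h circles, which it did not use, lie at 52.5%, 54.5% and 46.2%.

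Peaks in these regions scored slightly below the typical peak of their library. The deposited score, the authors' own value for each peak, was 50 or more in every list. Its scale is not stated, so a higher score in one library than in another is not read as more methylation. In the MI 24 h libraries, the median score of peaks in selected regions was 69.9, 67.1 and 65.8, against 71.9, 71.9 and 69.8 for all peaks of replicates 1, 2 and 3. Of these peaks 54.5%, 60.0% and 58.6% scored below the median of their library. In the libraries that the rule used, the share below the library median ran from 52.5% (72 h replicate 1) to 71.5% (6 h replicate 3).

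The MI 24 h group was not used by the rule, while the shares of the other groups were fixed by it, so no time course is read from their order. At 24 h, 52.5%, 54.5% and 46.2% of the selected regions had a peak in replicates 1, 2 and 3, a mean of 51.1% ± 4.36 (SD, n = 3), against 31.5% ± 1.48 of all autosomal regions. A peak in all 3 libraries was found for 285 regions (16.3%; 13.8% of all autosomal regions), in 2 for 613, in 1 for 590 and in 0 for 256 (14.7%; 46.4% of all autosomal regions). At least 2 libraries had a peak for 898 (51.5%), against 27.3% of all autosomal regions. Much of this gap to all regions goes with how often a region was found at all. Among regions with a peak in 8 of the 15 other libraries, the mean share at 24 h was 53.7% ± 4.38 for the 813 selected regions and 50.9% ± 1.97 for the 4087 others (SD, n = 3 libraries). With 7 of 15 it was 49.0% ± 5.58 against 45.0% ± 3.39, and with 9 of 15 it was 55.3% ± 1.19 against 57.2% ± 3.04. The values with 5 of 15 were furthest apart, 47.4% ± 2.94 for 52 selected regions and 32.2% ± 2.85 for 7781 others, and with 6 of 15 they were 42.7% ± 7.59 and 38.8% ± 2.73. No test was made of these differences. Selected regions with 0, 1, 2 and 3 early peaks were found at 24 h in 45.8%, 44.0%, 49.6% and 54.0% on average. Regions with more early peaks mostly also had more peaks in the 15 libraries, so the 2 were not told apart.

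The opposite pattern was counted in the same way. With a peak in at most 1 of the 6 sham and MI 72 h libraries and at least 6 of the 9 early ones, 313 autosomal regions were found (0.211%). At 24 h these had a peak in 42.3% ± 4.48 (SD, n = 3). The balance of the 2 patterns changed with the peaks used, and the cause was not tested. When the 34255 top-scoring peaks of every library were used, 592 regions had the selected pattern (0.527% of 112429) and 590 the opposite one. Lists of one length would also remove a true difference in the number of methylated regions between groups. Of the 1744 selected regions, 223 (12.8%) overlapped one of the 592, or 37.7% of the latter. With peaks scoring at least 70, 1052 regions had the selected pattern (1.18% of 89317) and 152 the opposite one, and 101 of the 1744 (5.79%) were among the former, or 9.60% of the 1052. With at least 50% of a region covered, the counts were 1367 (0.923%) and 449, and 1077 of the 1744 remained (61.8%, or 78.8% of the 1367). All 3 alternatives held for 66 of the 1744 regions (3.78%). Of these 66, 0 touched a promoter window, against 1.72% of all autosomal regions. The Jph2, H1f7 and Mstn regions, whose promoter windows are printed above, lost the pattern with equal numbers of top peaks and with scores of at least 70. The Mstn region also lost it with at least 50% of the region covered.

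**Figure D2:**
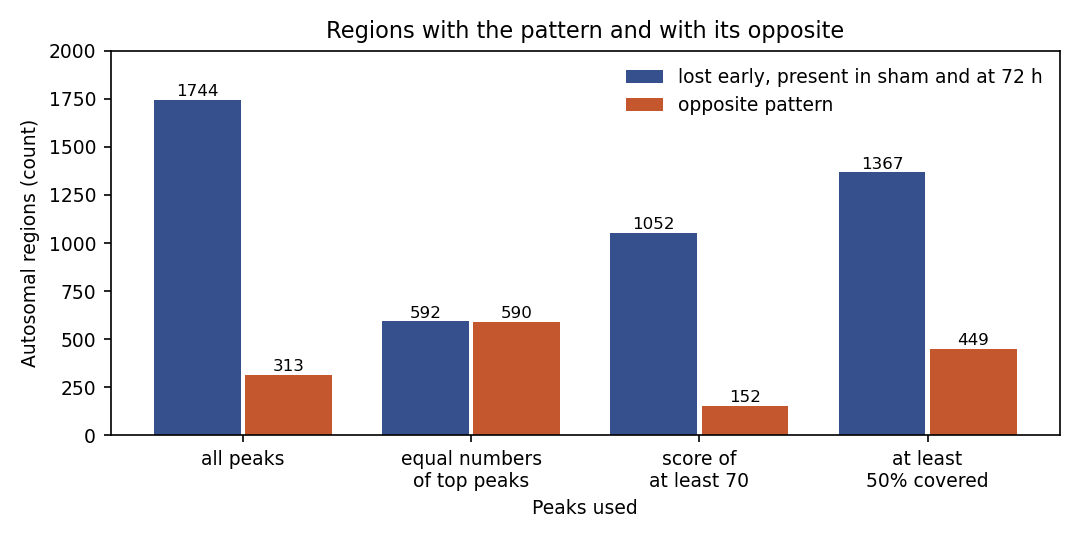
Bars give the number of autosomal regions with the selected pattern and with the opposite pattern, for all peaks and for 3 other ways of counting a peak. With all peaks the counts are 1744 and 313, and with equal numbers of top peaks 592 and 590.

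To read the pattern in libraries that had not chosen it, either MI 72 h or sham was taken out of the rule. When regions were chosen by a peak in 3 of 3 sham and at most 3 of 9 early libraries, 1740 were found (1.17%), and neither MI 24 h nor MI 72 h took part. At 72 h, 55.3%, 57.2% and 40.8% of them had a peak in replicates 1, 2 and 3, and at 24 h 42.4%, 48.0% and 42.0%. MI 72 h replicate 3 lay below all 3 MI 24 h libraries, so the groups overlapped. The means were 51.1% ± 8.96 and 44.1% ± 3.36 (SD, n = 3 each), a difference of 6.97 percentage points (two-sided exact permutation p = 0.4, adjusted p = 0.8 over 2 tests; 3 against 3 cannot give less than 0.1). Over all autosomal regions the same libraries averaged 36.3% ± 4.04 and 31.5% ± 1.48, and once each library's own share was taken off, the difference was 2.22 points (exact permutation p = 0.5). With equal numbers of top peaks it was 1.83 points for 782 regions (0.696%; exact permutation p = 0.6). It was larger with peaks scoring at least 70, at 11.9 points (exact permutation p = 0.3). Without MI 72 h replicate 3 it was 12.2 points (exact permutation p = 0.2, the smallest possible with 2 against 3). Without MI 72 h replicate 2 it was 3.92 points (exact permutation p = 0.8).

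The second choice took regions by a peak in 3 of 3 MI 72 h and at most 3 of 9 early libraries and found 3043 (2.05%). In sham, 38.3%, 53.3% and 30.1% of them had a peak, and at 24 h 44.1%, 46.5% and 38.7%. Sham replicate 2, the library with the longest sham list, lay above all MI 24 h libraries and the remaining sham libraries lay below all of them. The mean of sham was 2.56 points lower than that of 24 h (-2.56; two-sided exact permutation p = 0.8, adjusted p = 0.8). Once each library's share of all regions was taken off, the difference was -4.35 points (exact permutation p = 0.4). Without sham replicate 2, and with no share taken off, it was -9.06 points (exact permutation p = 0.2, the smallest possible with 2 against 3). Without sham replicate 3 the difference was 2.70 points, and with peaks scoring at least 70 it was 2.29 points, both in the other direction. With equal numbers of top peaks, for 1050 regions (0.934%), it was -4.98 points (exact permutation p = 0.2).

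**Figure D3:**
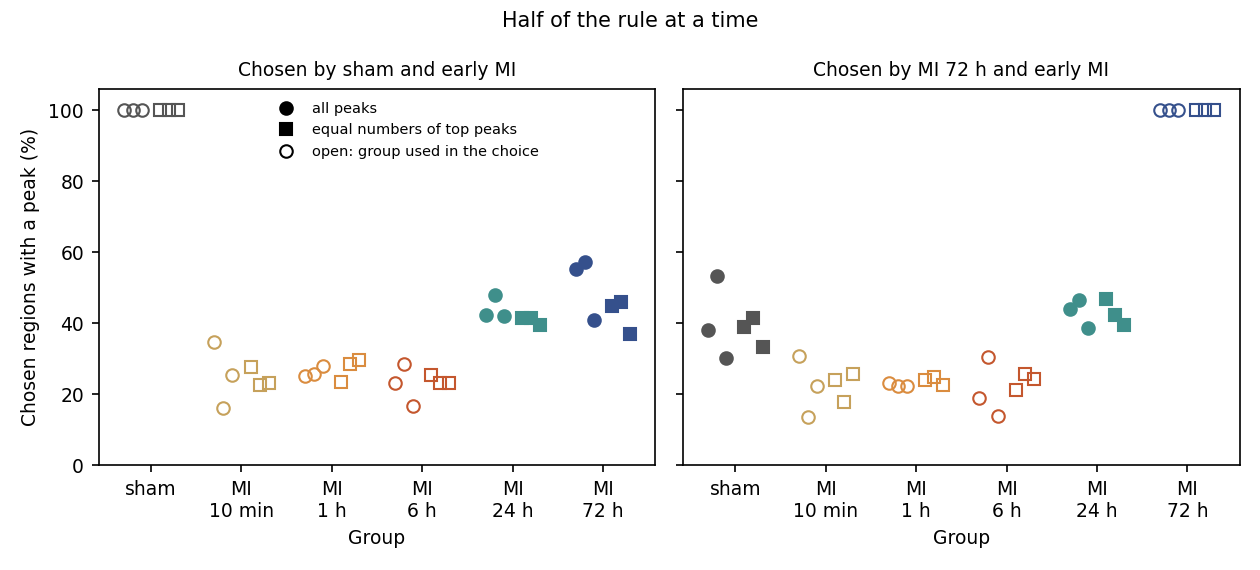
Share of the chosen regions with a peak, in percent, for each library; open symbols mark groups that took part in the choice, circles stand for all peaks and squares for equal numbers of top peaks. The filled MI 24 h and MI 72 h symbols overlap in the left panel, and the filled sham and MI 24 h symbols overlap in the right panel.

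Each library was also left out of the rule in turn and then read in the regions chosen by the remaining ones (at least 4 of 5 and at most 3 of 9 where a sham or MI 72 h library was left out; at least 5 of 6 and at most 2 of 8 where an early one was). With all peaks, the left-out library had a peak in 46.5% ± 11.9 of the regions for sham, 39.2% ± 12.6 for 10 min, 42.1% ± 0.908 for 1 h, 37.5% ± 9.97 for 6 h and 55.0% ± 10.4 for 72 h (SD, n = 3 each). With equal numbers of top peaks these became 42.7% ± 3.89 for sham, 42.8% ± 5.58 for 10 min, 43.5% ± 4.05 for 1 h, 43.0% ± 2.22 for 6 h and 46.9% ± 4.50 for 72 h. With lists of equal length, the means of left-out sham and left-out early libraries differed by less than the spread of the replicates. The rule for a left-out sham library was looser, giving 1137 to 1235 regions, against 341 to 382 for a left-out early library. Nearness of these means is therefore not read as likeness of sham and early MI. The MI 24 h libraries, with the full rule, had 48.3% ± 5.83, the highest mean of the 6 groups. These shares are given without a test, because the left-out libraries were read in region sets chosen by different libraries and by unlike rules.

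**Figure D4:**
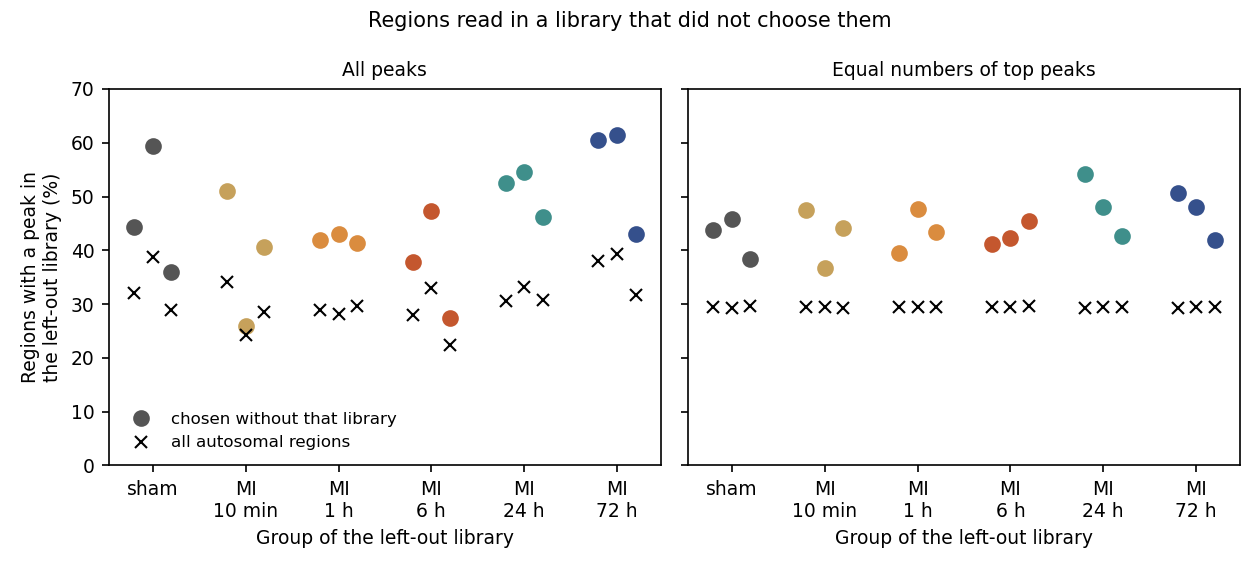
Circles give the share of regions, in percent, with a peak in a library that did not help to choose them, by the group of that library; crosses give the library's share of all autosomal regions. With equal numbers of top peaks (right) the sham circles lie between 38.4% and 45.9% and the early circles between 36.7% and 47.6%.

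The named regions that follow are those ranked highest by the number of sham and MI 72 h peaks, then by fewest early peaks, then by mean score. Their peaks in sham, early MI and at 72 h are the rule's own and are given as values only. The 7 regions with the full pattern had scores between 50.4 and 92.4 in these libraries. The first lay on chromosome 6 from 114996063 to 114997638, 6743 bases from Tamm41, which encodes an enzyme of mitochondrial lipid synthesis. Its scores were 81.6, 83.1 and 57.0 in sham and 89.8, 57.4 and 81.8 at 72 h, and at 24 h only replicate 1 had a peak (67.9). The second lay within Cpne4, a calcium-dependent membrane-binding protein, on chromosome 9 from 105018154 to 105020221. It scored 91.6, 50.4 and 64.1 in sham and 88.7, 78.6 and 59.6 at 72 h, and at 24 h replicates 2 and 3 had a peak (68.3 and 92.3). In Cpne4 the peak of sham replicate 2 was thus barely above the lowest score listed.

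The others with the full pattern were a region within Pcdhb17, a protocadherin of neuronal cell contacts, and the predicted genes that overlap it (chromosome 18 from 37485515 to 37487127), one within Nup214, a protein of the nuclear pore (chromosome 2 from 32007045 to 32008150), and one within Il9r, the receptor of interleukin 9 (chromosome 11 from 32192771 to 32194468). A further one lay 76324 bases from Wif1, an inhibitor of Wnt ligands (chromosome 10 from 121176966 to 121178065), and the last lay within the pseudogene Ppp4r1l-ps (chromosome 2 from 173643897 to 173645551). The regions at Il9r and near Wif1 had no peak at 24 h either. Their scores were 53.6, 73.9 and 63.1 in sham and 62.4, 50.4 and 60.1 at 72 h for Il9r, and 58.8, 64.6 and 70.4 in sham and 63.8, 52.5 and 53.5 at 72 h near Wif1. None of these 7 had the pattern with equal numbers of top peaks.

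Among the next in rank, the region within Nnt was the only one of the 10 highest to keep the pattern under all 3 alternatives. Nnt encodes nicotinamide nucleotide transhydrogenase, a mitochondrial enzyme that makes NADPH. The region lay on chromosome 13 from 119335778 to 119336709. Its scores were 98.0, 89.7 and 79.7 in sham, 75.9, 98.8 and 71.4 at 72 h, and 98.2, 114 and 56.9 at 24 h. Its only early peak, in 1 h replicate 2, scored 108, higher than all of these except 24 h replicate 2. The region within Nod2, an intracellular sensor of bacterial cell wall, lay on chromosome 8 from 88682316 to 88683612 and also kept the pattern with equal numbers of top peaks. It scored 67.3, 124 and 69.7 in sham, 75.4, 108 and 77.1 at 72 h, 84.2 in 24 h replicate 2 and 80.4 in 10 min replicate 1. The tenth region lay 34739 bases from Gm4802 on chromosome 16 from 49447426 to 49448796, and scored 160 in 72 h replicate 1, the highest value among the 10.

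After the region in Nnt, the highest-ranked regions that kept the pattern in all 3 alternatives lay near Dtnbp1 (chromosome 13 from 45090926 to 45092319), near Gm40369 (chromosome 6 from 47633831 to 47634830), within Lrrc43 (chromosome 5 from 123499953 to 123501779) and near Abca13 (chromosome 11 from 9749154 to 9750782). Near Gm40369 the scores were 111, 105 and 61.0 in sham, 148, 120 and 77.8 at 72 h, and 79.0 and 195 in 24 h replicates 2 and 3. Lrrc43, a gene of a leucine-rich repeat protein, had 78.6, 91.9 and 65.2 in sham, 92.1, 85.2 and 110 at 24 h, and 169, 85.5 and 82.9 at 72 h. Its 2 early peaks, both at 6 h, scored lower than all of these (64.9 and 57.8). At 72 h the region near Abca13 had 104, 118 and 109, each above the 3 sham values of 76.3, 72.4 and 77.0 and the 3 values at 24 h of 82.0, 52.9 and 74.6. Its early peaks, 92.9 in 1 h replicate 2 and 90.7 in 6 h replicate 2, also exceeded the sham values.

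Among regions with a peak in all 3 libraries at 24 h, the highest in rank after Nnt were one 758622 bases from Gm6749 (chromosome 6 from 109641329 to 109642905) and one within Slfn4, an interferon-induced gene of myeloid cells (chromosome 11 from 83186667 to 83187783). Slfn4 had 88.6, 57.6 and 78.8 in sham, 71.4, 95.2 and 83.0 at 24 h and 55.5, 71.4 and 65.9 at 72 h, with 1 early peak of 59.7 in 6 h replicate 3. After Wif1 and Il9r, the highest-ranked region with no peak at 24 h lay within the long noncoding RNA Gm38409 (chromosome 14 from 67491296 to 67492517), 60344 bases from Ebf2.

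At the starts and ends of coding genes, 54 selected regions (3.10%) covered the first or last base of a gene, against 2.04% of all autosomal regions and 2.56% of the regions found in 8 to 10 of the 18 libraries. The 5 ranked highest at a promoter window or gene end were at Jph2, Syt3, Col9a3, Col2a1 and Mrgprh. Syt3 encodes a synaptotagmin, a calcium sensor of membrane fusion, and Col9a3 and Col2a1 encode collagens of cartilage. The Col9a3 region (chromosome 2 from 180622171 to 180622963) had its highest score in a library of an early group, 159 in 10 min replicate 1, above 145 in sham replicate 3 and 101 in 72 h replicate 2. Its early peaks were thus few but not low in score. The Mstn region (chromosome 1 from 53061210 to 53062399) had 51.7 and 71.1 in sham replicates 1 and 3, 76.8, 101 and 70.1 at 72 h, 64.6 and 59.2 in 24 h replicates 2 and 3, and 81.7 and 75.6 in 1 h replicates 1 and 2. The H1f7 region (chromosome 15 from 98255654 to 98257675) had a peak in all 3 libraries at 24 h (89.8, 81.5 and 75.7). At 6 h it had 107 and 55.3 in replicates 2 and 3, and at 1 h 78.6 in replicate 2, and no 10 min library had a peak there.

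The genes of the heart were looked at through 8 lists with 157 genes, all found in the gene table, with 2000 bases on either side of each. In all, 20 selected regions lay at 17 of these genes. Per list the selected share of the list's regions ran from 0.840% to 2.78%, on 1 to 5 regions each, beside 1.18% of all autosomal regions; nothing particular to a list is read from counts this small. At 24 h, 11 of the 20 had a peak in 2 libraries, 6 in 1, 3 in 0 and 0 in all 3. Over all selected regions, 35.1% had 2 of 3 and 16.3% had 3 of 3, and over all autosomal regions 13.5% and 13.8%. With equal numbers of top peaks the pattern was kept by 2 of the 20, at Mef2d and Nfkb1, and with scores of at least 70 by 0. Of the 180 peaks in these 20 regions, 100 scored below 70.

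For calcium handling and ion channels, 3 of 20 genes had 5 selected regions among 267 (1.87%). The Jph2 region, on chromosome 2 from 163396393 to 163397924, was the highest in rank of all the listed genes. Its sham scores were 52.5, 52.8 and 55.5, all close to the lowest score listed, and its scores at 72 h were 112, 101 and 88.8. The sham and 72 h values did not overlap, and the 2 other peaks, 77.1 in 6 h replicate 3 and 95.1 in 24 h replicate 3, also lay above the 3 sham values. The region lies just inside the gene from the promoter window printed above. Cacna1c, the pore of the L-type calcium channel that starts each contraction, had 3 regions: chromosome 6 from 118976163 to 118977473, from 118829322 to 118830599 and from 118711511 to 118714042. The first had 66.9, 109 and 51.2 in sham and 68.9, 83.8 and 50.7 at 72 h. The other two lacked a peak in 72 h replicate 3 and had 3 early peaks each, so they met the rule only just. Ank2, encoding ankyrin B, which anchors channels and transporters in the membrane, had 1 (chromosome 3 from 127140322 to 127142002) with 95.0, 67.1 and 65.0 at 72 h and none in sham replicate 3.

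For contraction, 3 of 22 genes had 3 regions among 148 (2.03%). Csrp3 encodes the muscle LIM protein of the Z-disc, and its region (chromosome 7 from 48845620 to 48847174) had 70.7 and 109 in sham replicates 1 and 2, 108, 62.2 and 55.9 at 72 h, 71.4 and 64.3 in 24 h replicates 2 and 3, and 70.8 in 10 min replicate 1. No 1 h or 6 h library had a peak there. The region in Ttn, the gene of the giant spring protein titin (chromosome 2 from 76748210 to 76750516), had no peak in any 1 h, 6 h or 24 h library and had 67.5 and 59.8 in 10 min replicates 1 and 2. At 72 h it scored 66.9, 93.6 and 53.2. The region in Actn2, which encodes the actin cross-linker of the Z-disc (chromosome 13 from 12331357 to 12332307), had its highest score in 1 h replicate 1 (98.6), above the 72 h values of 52.2, 76.6 and 53.1.

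For cardiac transcription factors, 3 of 20 genes had 3 regions among 166 (1.81%). The Mef2d region (chromosome 3 from 88155607 to 88157074) had 92.5, 51.9 and 58.0 in sham, 93.7, 107 and 83.1 at 72 h, and 112 in 1 h replicate 3, its highest value in any library. Mef2d and Mef2a encode factors that drive muscle genes. The Mef2a region (chromosome 7 from 67232423 to 67233743) had all 3 of its early peaks at 6 h (96.0, 63.7 and 52.3) and none at 10 min or 1 h. Nfatc2, a factor that enters the nucleus on calcium signals, had a region (chromosome 2 from 168506287 to 168508196) with no peak at 24 h or in 72 h replicate 3.

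For matrix and fibroblasts, 3 of 24 genes had 3 regions among 138 (2.17%): Col4a2 and Col5a1, collagens of basement membrane and of thin fibrils, and Ddr2, a collagen receptor of fibroblasts. The Ddr2 region (chromosome 1 from 170102219 to 170103375) had the highest score of the 20, 153 in 72 h replicate 2, while the other 72 h libraries had 57.9 and 54.3. For endothelial cells, 2 of 12 genes had 3 regions among 108 (2.78%), at Flt1, a receptor for vascular endothelial growth factor, with 2, and at Nos3, the endothelial nitric oxide synthase. The Nos3 region (chromosome 5 from 24371578 to 24372928) had 64.0, 61.6 and 53.6 in sham and 83.9, 59.7 and 69.6 at 72 h, but 120 in 6 h replicate 1 and 89.4 in 1 h replicate 2. Where early libraries had a peak there, it scored higher than in sham. For leukocytes and inflammation 1 of 25 genes had a region (1 of 56 regions, 1.79%), Nfkb1, a subunit of the transcription factor NF-κB. For hypoxia and fuel use 1 of 20 genes had one (1 of 119, 0.840%), Egln1, the oxygen sensor that marks HIF for destruction. Among 14 genes that write, read or erase methylation, 1 had one (1 of 66, 1.52%), Tet1. The Egln1 region (chromosome 8 from 124909384 to 124911500) had 138 in 72 h replicate 1 and the Tet1 region (chromosome 10 from 62866249 to 62867804) had 119 in 24 h replicate 2.

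**Figure D5:**
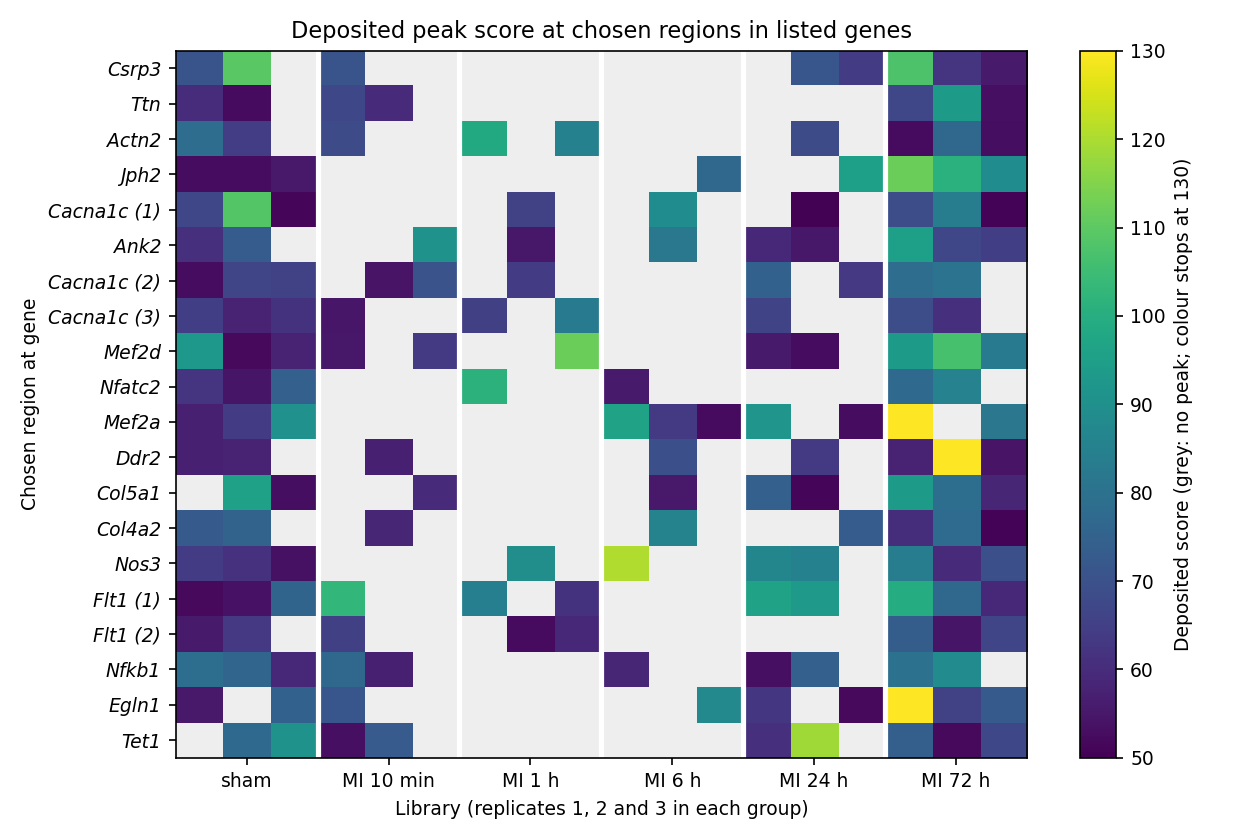
Deposited score of the highest-scoring peak in each of the 20 selected regions at listed genes (rows, numbered by rank where a gene has several) in the 18 libraries (columns); grey means no peak. The Jph2 row is dark in the 3 sham libraries (52.5 to 55.5) and bright in the 3 MI 72 h libraries (88.8 to 112).

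The selected regions were spread over all 19 autosomes, from 0.814% of the regions of chromosome 12 (55) to 1.47% of those of chromosome 15 (92). Their median width was 1369 bases, against 1072 for all autosomal regions and 1343 for regions found in 8 to 10 libraries; merged regions grow with the number of peaks in them, so the width follows in part from the rule. Of the 1744, 953 (54.6%) overlapped a coding gene, against 50.5% of all autosomal regions, 51.4% of regions found in 8 to 10 libraries and 43.8% of the 313 with the opposite pattern. A long noncoding RNA gene was overlapped by 170 (9.75%, against 10.4% of all). Exons and introns were not told apart. A microRNA gene was overlapped by 1 selected region (0.0573%), against 0.0938% of all autosomal regions and 0.159% of regions found in 8 to 10 libraries. That gene was Mir6418 within Gnb2, which encodes a G protein subunit. The region, chosen for mention after its values had been seen, lay on chromosome 5 from 137528306 to 137529830 and had a peak in all 3 libraries at 24 h (87.3, 68.2 and 66.7) and in 6 h replicates 2 and 3 (71.2 and 59.8). Its mature forms are given because the region covers them whole, with the seed (bases 2 to 8) in capitals.
mmu-miR-6418-5p: uCAGGGGAagggaagagaugc
mmu-miR-6418-3p: aCUGCAACcuccuuucuccagg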

How the data were processed

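MeDIP-seq peak lists of 18 heart libraries were used, 1 per mouse, 3 per group. Per the submitters' processing notes, reads were handled with Bowtie2 and MACS2 on build mm10; versions, options and any input control are not given in the sources used here. The deposited lists give chromosome, start, end, name and a score for each peak, called in each library separately (its scale is not stated, and the lowest value was 50 in every list). The peak names begin with MACS_peak, a form of older MACS versions, so which caller set the deposited score is unsure. Depth is unknown, so no counting interval is given. Starts were counted from 1. Merging, counting and tests were done in Python 3.11.15 with NumPy 2.4.6 and SciPy 1.17.1, and checked on simulated lists. Gene names and promoter sequences come from RefSeq tables of GRCm38.p6, the assembly that mm10 names. Differences between 3 and 3 libraries were tested by a two-sided exact permutation test with Benjamini-Hochberg adjustment over 2 tests. Alternatives were equal numbers of top peaks, scores of at least 70, 50% coverage, a stricter rule, each library left out, subtraction of each library's share of all regions, and a replicate block. Named regions were the 10 ranked highest, the 3 highest with 3 of 3 and with 0 of 3 peaks at 24 h, the 5 highest kept in 3 alternatives, the 5 highest at a promoter window or gene end, and all at the listed genes. The regions, lists and comparisons were chosen with earlier results of these data known.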

Additional observations from a re-analysis of the deposited data

How the results depend on the processing

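The count of selected regions followed the peaks used: 1744 as reported, 592 with equal numbers of top peaks, 1052 with scores of at least 70, and 110 with the stricter rule (6 of 6 and at most 2 of 9). Leaving out 1 library at a time gave 999 to 3738, the extremes without MI 10 min replicate 2 and without sham replicate 3; the rule then loosens to 4 of 5 or tightens to 2 of 8. Without a sham library the count was 2681 to 3738, and without MI 72 h replicates 1, 2 or 3 it was 2653, 2599 or 3298. Without MI 10 min replicate 1 or MI 6 h replicate 2 it was 1233 or 1224, and without any other early library it was 999 to 1140. The share found at 24 h ran from 45.5% to 53.5%. The difference between 72 h and 24 h ran from 3.92 to 12.2 points when 1 library was left out, and from 1.83 (equal numbers of top peaks) to 11.9 points (scores of at least 70) in the other alternatives. That between sham and 24 h ran from -9.06 (without sham replicate 2) to 2.70 points (without sham replicate 3), and was 2.29 points with scores of at least 70; the cause was not tested. With 3 against 3 libraries no p can fall below 0.1, and with 2 against 3 none below 0.2. These p-values therefore say nothing about stability. With the replicate number as a block, the differences were 6.97 points (exact permutation p = 0.5) and -2.56 points (exact permutation p = 0.75), where 0.25 is the smallest p possible. Same-numbered libraries of 72 h and 24 h had correlated deviations of 0.0347, 0.0176 and 0.0350. Those of sham and 24 h had 0.00788, 0.0139 and 0.0212. Pairs of unlike number ran from -0.0302 to 0.00707. Each library correlated best with its own number, but the values were small and were not tested. Sham replicate 2 and 24 h replicate 1 had 0.00707, close to the 0.00788 of the same-numbered libraries. The design gives no pairing, and whether the replicate number marks one was not tested.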

Other observations

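Of the 21900 coding genes in the gene table, 920 held a selected region: 843 held 1, 64 held 2 and 13 held 3 or more. How many held any region is not given here. The 13 included the overlapping predicted genes Gm37013, Gm38666 and Gm38667 with 4 each, so 1 region can count for several genes. The lowest share among the 13 was that of Sdk1, with 3 of 102 regions (2.94%). Tiam1, which encodes an activator of the small GTPase Rac, held 4 of its 57 regions (7.02%). Dgkg, a diacylglycerol kinase gene, held 3 of 17 (17.6%) and Frmd5 3 of 22 (13.6%). Dock9, an activator of Cdc42, and Mgmt, a DNA repair gene, held 3 of 32 each (9.38%), and Tln2, whose protein talin 2 links integrins to actin, held 3 of 40 (7.50%). These genes were singled out after their values had been seen, and with 1.18% of all autosomal regions in the pattern no test was made of them. Neighbouring selected regions on a chromosome lay 721 kb apart at the median, and 20 of 1725 neighbours began within 10 kb of each other. On the sex chromosomes, which the rule left out, 53 of 4085 regions (1.30%) had the same pattern.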
